A study of Mus musculus with 2 samples.

Results

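The genes described here are the 9 genes of mammalian polyamine synthesis, breakdown and feedback control that were listed by symbol for this purpose: the antizymes Oaz1 and Oaz2, ornithine decarboxylase Odc1 and its homologue Azin1, the synthases Srm and Sms, and the breakdown enzymes Sat1, Paox and Smox. All 9 symbols matched a gene, so they are 9 of the 43346 Ensembl genes in the tables, and the list was drawn up with their levels in these libraries known. Levels are therefore given as a description, without a test. The libraries come from mouse erythroblasts, the nucleated precursors of red cells, taken from fetal liver at embryonic day 14.5 as cells carrying the red cell surface antigen Ter119. There was 1 group of 2 libraries of poly(A)-selected RNA, called library 1 and library 2 after their biological replicate numbers, and no treatment or mutant to set against it. Both libraries were made from pooled male and female embryos, and the labels give no strain. They list separate biosamples but the same donor entry for both libraries, so the spread between them may be technical in part.

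Polyamines are small positively charged molecules (putrescine, spermidine and spermine) that bind nucleic acids and are needed for cell growth. Ornithine decarboxylase makes putrescine, Srm adds an aminopropyl group to give spermidine, and Sms adds another to give spermine. When polyamines are abundant, ribosomes reading an antizyme mRNA shift frame, full-length antizyme is made, and it binds Odc1 and carries it to the proteasome. Spermidine is also the source of hypusine, a modified lysine of the translation factor eIF5A that has been linked to red cell differentiation.

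Total rounded expected counts were 51190552 in library 1 and 44256272 in library 2. All 8 erythroblast markers reached 1 TPM (a transcript level corrected for length and scaled to the same sum in each library) in both libraries. The early progenitor markers Kit and Gata2 stayed under 1 TPM, as did the leukocyte gene Ptprc with 0.02 TPM in library 1 and 0.05 in library 2. Of the hepatocyte markers, Alb and Ttr stayed under 1 TPM, while Apoa1 had 6.01 TPM in library 1 and 8.05 in library 2 and Afp had 1.27 TPM in library 1 and 1.34 in library 2. The globin genes held 86.0% of all TPM in library 1 and 84.4% in library 2.

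Oaz1 was by far the most abundant of the 9 genes and Smox, the spermine oxidase, came next, while the enzymes that make spermidine and spermine were low. Of the 9 genes, 6 reached 1 TPM in both libraries (66.7%), against 20.0% of all protein-coding genes and 10.4% of all Ensembl genes. The median of their mean levels was 13.1 TPM, against 0.02 TPM over all protein-coding genes and 5.02 TPM over the protein-coding genes that reached 1 TPM in both libraries. The summed level of the 9 genes was 1923 TPM in library 1 and 2102 TPM in library 2. That is 0.192% of all TPM in library 1 and 0.210% in library 2. Outside the globin genes their share was 1.37% in library 1 and 1.35% in library 2. Oaz1 alone held 84.3% of the summed TPM in library 1 and 85.1% in library 2. Of what was left, Smox held 75.3% in library 1 and 78.2% in library 2.

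**Figure D1:**
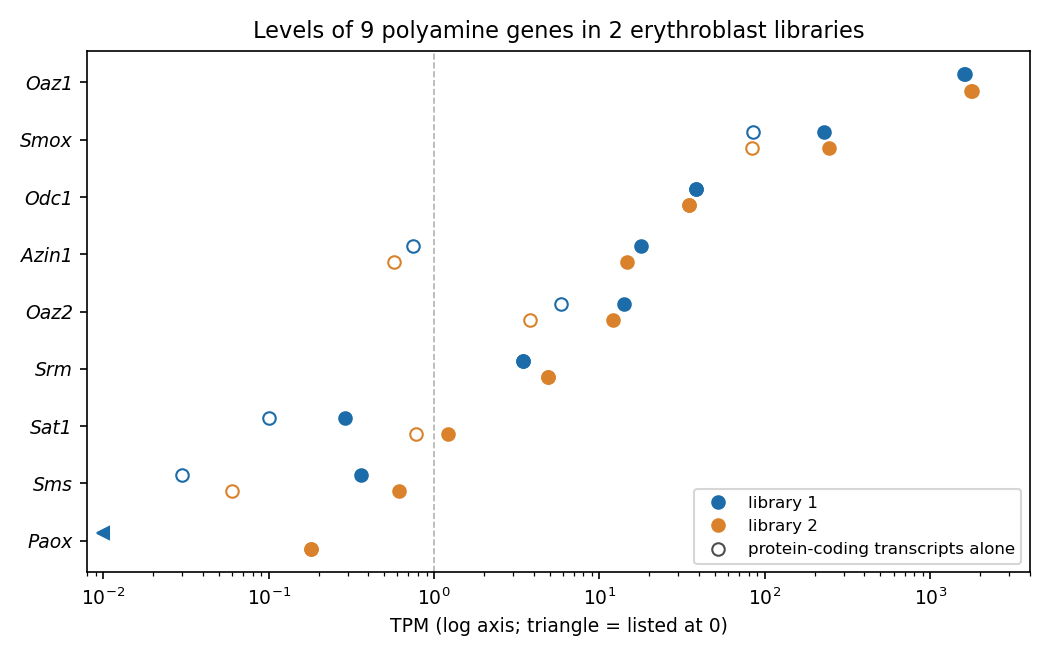
Level of each of the 9 genes in TPM on a log axis, with library 1 above library 2 in each row, filled circles for all transcripts of a gene, open circles for its protein-coding transcripts alone and triangles for a level listed at 0. Oaz1 lies at 1622 TPM in library 1 and 1789 in library 2, and Sat1, Sms and Paox lie near or below the dashed line at 1 TPM; for Azin1 the open circles fall below 1 TPM while the filled ones lie at 17.9 TPM in library 1 and 14.6 in library 2.

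The antizymes differed from each other by about 2 orders of magnitude. Oaz1, which lies at chr10:80826656-80829290 on the plus strand (mm10, the mouse build of the tables), had 1622 TPM in library 1 and 1789 TPM in library 2, a mean of 1705 ± 118 TPM (SD, n = 2). It ranked 12 among the 21474 protein-coding genes. Oaz2, at chr9:65668001-65690300 on the plus strand, had 14.1 TPM in library 1 and 12.01 TPM in library 2, a mean of 13.1 ± 1.47 TPM (SD, n = 2), and ranked 1151. The ratio of Oaz1 to Oaz2 was 115 in library 1 and 149 in library 2. The 5 protein-coding genes with the level nearest to Oaz1 in both libraries were the ribosomal protein genes Rpl28, Rpl18, Rps15 and Rpl41 and the deubiquitinase gene Josd2. Rpl28 was nearest, within 0.20 on the log2 TPM scale in both libraries, and Josd2 was within 0.77. Likeness here means similar TPM in 2 libraries and no more than that.

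The frameshift site of both antizymes is shown because it is the feature that sets antizyme mRNAs apart and because the annotated transcript models differ there. The lines below give 30 bases around it on the plus strand of mm10, from 5′ to 3′, read from GENCODE M21 transcripts. The Oaz1 window is chr10:80828280-80828309 and the Oaz2 window is chr9:65686257-65686286. Capitals mark the last codon of the first reading frame and the stop codon that follows it, less the base left out where a model omits it. The transcripts Oaz1-206 and Oaz2-205 hold every base of the window, while Oaz1-202 and Oaz2-204 leave out 1 base.
Oaz1-206: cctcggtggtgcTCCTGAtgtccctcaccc
Oaz1-202: cctcggtggtgcTCCGAtgtccctcaccc
Oaz2-205: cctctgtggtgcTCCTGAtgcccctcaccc
Oaz2-204: cctctgtggtgcTCCGAtgcccctcaccc

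The Oaz1 and Oaz2 windows were identical at 28 of 30 bases. The omitted base lies at position 80828295 of chromosome 10 for Oaz1 and at position 65686272 of chromosome 9 for Oaz2. In the models with the omission, the annotated exon is cut around that base, so that the coding sequence runs on in the +1 frame. With the base in place, the reading frame of Oaz1-202 ran for 66 codons from its ATG to the TGA, and that of Oaz2-204 for 32 codons, with 0 earlier stop codons in either. Frameshifting takes place on the ribosome and leaves the mRNA unchanged, so the shares of these models do not measure it. Over the whole coding sequence, 66.0% of 567 aligned bases were identical between Oaz1-207 and Oaz2-206.

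Most Oaz1 signal was assigned to models that omit 1 base at the site. Such models, 3 in number, held 79.5% of Oaz1 TPM in library 1 and 77.9% in library 2. Their share of the expected counts was 82.4% in library 1 and 81.9% in library 2. The 2 models that hold every base, Oaz1-205 and Oaz1-206, took 19.2% of Oaz1 TPM in library 1 and 21.2% in library 2. Another model, Oaz1-201, omits 4 bases and took 1.30% in library 1 and 0.91% in library 2. For Oaz2, the 3 models that hold every base took 58.7% of TPM in library 1 and 67.7% in library 2. The 2 models that omit 1 base took 15.3% in library 1 and 4.39% in library 2, and Oaz2-201, which omits 4 bases, took 25.8% in library 1 and 27.2% in library 2. Of the Oaz2 expected counts, models that hold every base had 48.6% in library 1 and 49.7% in library 2, and Oaz2-201 alone had 42.7% in library 1 and 46.6% in library 2. Oaz2-201 and Oaz2-206, which omits 1 base, have the same ends and 6 exons each, so the split between them is uncertain. Of Oaz2 TPM, Oaz2-206 held 0.21% in library 1 and 0% in library 2. By deposited posterior means its share was 9.64% in library 1 and 9.92% in library 2. That of Oaz2-201 was then 16.2% in library 1 and 16.8% in library 2. The other models also differ in their ends and introns, and whether the omitted base moved reads between models was not tested.

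By transcript, Oaz1-202, a coding model of 708 bases, led with 60.2% of Oaz1 TPM in library 1 and 52.7% in library 2. The longer coding model Oaz1-207, of 1044 bases, held 19.2% in library 1 and 25.1% in library 2. Protein-coding models together made up 98.9% of Oaz1 TPM in library 1 and 98.8% in library 2. For Oaz2 the leading model by TPM was Oaz2-205, of the retained-intron type, with 48.1% in library 1 and 40.6% in library 2. Counted by reads in place of TPM, the coding model Oaz2-201 led Oaz2 in library 2 with 46.6% of counts, while Oaz2-205 led in library 1 with 44.7%. Protein-coding models alone gave Oaz2 a level of 5.82 TPM in library 1 and 3.79 in library 2.

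Oaz1 has a processed pseudogene, Oaz1-ps, an intronless copy on chromosome 17 whose window at the frameshift site is identical to that of Oaz1 at 30 of 30 bases. Of the 31-base words pooled over all Oaz1 transcripts, 24.0% also occur in another gene, and 624 of these 668 words are in Oaz1-ps. With models taken singly, the share was 76.8% in Oaz1-202, 58.5% in Oaz1-207 and 95.1% in Oaz1-205, against 23.7% in Oaz1-206. Oaz1-ps received 183 expected counts in library 1 and 153 in library 2, where Oaz1 itself received 99091 in library 1 and 88166 in library 2. The copy thus had 0.185% of the Oaz1 count in library 1 and 0.173% in library 2. Reads that lie wholly in the shared sequence could have been given to either gene by the quantifier, so the split is uncertain. Oaz2 shared 12.1% of its words with other genes, and its copy Oaz2-ps received 2.02 counts in library 1 and 2.46 in library 2.

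Odc1 and Azin1, the target of the antizymes and its inactive homologue that binds antizyme in its place, had levels far below Oaz1. Odc1, at chr12:17544794-17551505 on the plus strand, had 38.5 TPM in library 1 and 34.9 TPM in library 2, a mean of 36.7 ± 2.55 TPM (SD, n = 2). Azin1, at chr15:38487427-38519266 on the minus strand, had 17.9 TPM in library 1 and 14.6 TPM in library 2, a mean of 16.2 ± 2.35 TPM (SD, n = 2). Odc1 ranked 474 and Azin1 975 among protein-coding genes. The ratio of Odc1 to Azin1 was 2.15 in library 1 and 2.39 in library 2. The coding sequences of Odc1-201 and Azin1-201 were identical at 61.6% of 1335 aligned bases. Among the protein-coding genes nearest to Odc1 in level were Sri, 1110008P14Rik, Rps24 and Chchd7, each within 0.06 on the log2 TPM scale.

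Oaz1 exceeded Odc1 by 42.2-fold in library 1 and 51.3-fold in library 2, a mean ratio of 46.8 ± 6.48 (SD, n = 2). The summed antizymes exceeded the sum of Odc1 and Azin1 by 29.0-fold in library 1 and 36.4-fold in library 2. Part of the Odc1 signal may sit in copies, since Odc1 shared 31.3% of its 31-base words, pooled over its M21 transcripts, with other genes. Of the words of Odc1-201, its only quantified model, 52.0% also occur in other genes. Those genes include 10 quantified pseudogenes, which together received 683 counts in library 1 and 812 in library 2. That is 7.55% of the Odc1 count in library 1 and 12.7% in library 2. Among them Gm7278 received 439 counts in library 1 and 433 in library 2, and Gm17709 received 240 in library 1 and 366 in library 2. With all 10 added to Odc1 the mean ratio of Oaz1 to Odc1 was 38.3. In bulk RNA of this kind, fewer cells that express a gene and less RNA of it per cell cannot be told apart.

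Most Azin1 TPM was assigned to a short non-coding model. Azin1-208, a processed transcript of 622 bases, held 90.8% of Azin1 TPM in library 1 and 93.1% in library 2. It consists of 3 exons at the 5′ end of the gene, of which the middle exon of 142 bases (chr15:38517817-38517958) is absent from the full coding model Azin1-201 of 12 exons. Azin1-201 held 4.19% of TPM in library 1 and 2.88% in library 2. Expected counts are not divided by length, and of these Azin1-208 held 57.5% in library 1 and 61.5% in library 2. The counts' share of Azin1-201 was 26.1% in library 1 and 18.5% in library 2. Coding models alone gave Azin1 a level of 0.75 TPM in library 1 and 0.57 in library 2. An antisense gene, Gm49077, overlaps the first exon of Azin1 in the M21 annotation and was not analysed here. No source used here says whether counting used strand, so reads of the 2 genes cannot be told apart there.

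The synthases were lower than the decarboxylase. Srm, at chr4:148591503-148594993 on the plus strand, had 3.43 TPM in library 1 and 4.88 TPM in library 2, a mean of 4.16 ± 1.03 TPM (SD, n = 2). All Srm signal was assigned to its coding model Srm-201. Sms, at chrX:157443855-157492287 on the minus strand, had 0.36 TPM in library 1 and 0.61 TPM in library 2, a mean of 0.485 ± 0.177 TPM (SD, n = 2), from 55.8 counts in library 1 and 75 in library 2. Srm exceeded Sms by 9.53-fold in library 1 and 8.00-fold in library 2. The leading Sms model was Sms-204, annotated as a target of nonsense-mediated decay, with 92.3% of Sms TPM in library 1 and 90.1% in library 2. Words of Sms also occur in 15 quantified pseudogenes, which together received 32.2 counts in library 1 and 19 in library 2. Sms shared words with 1436 genes in all, and whether these pseudogenes are copies of Sms was not tested.

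**Figure D2:**
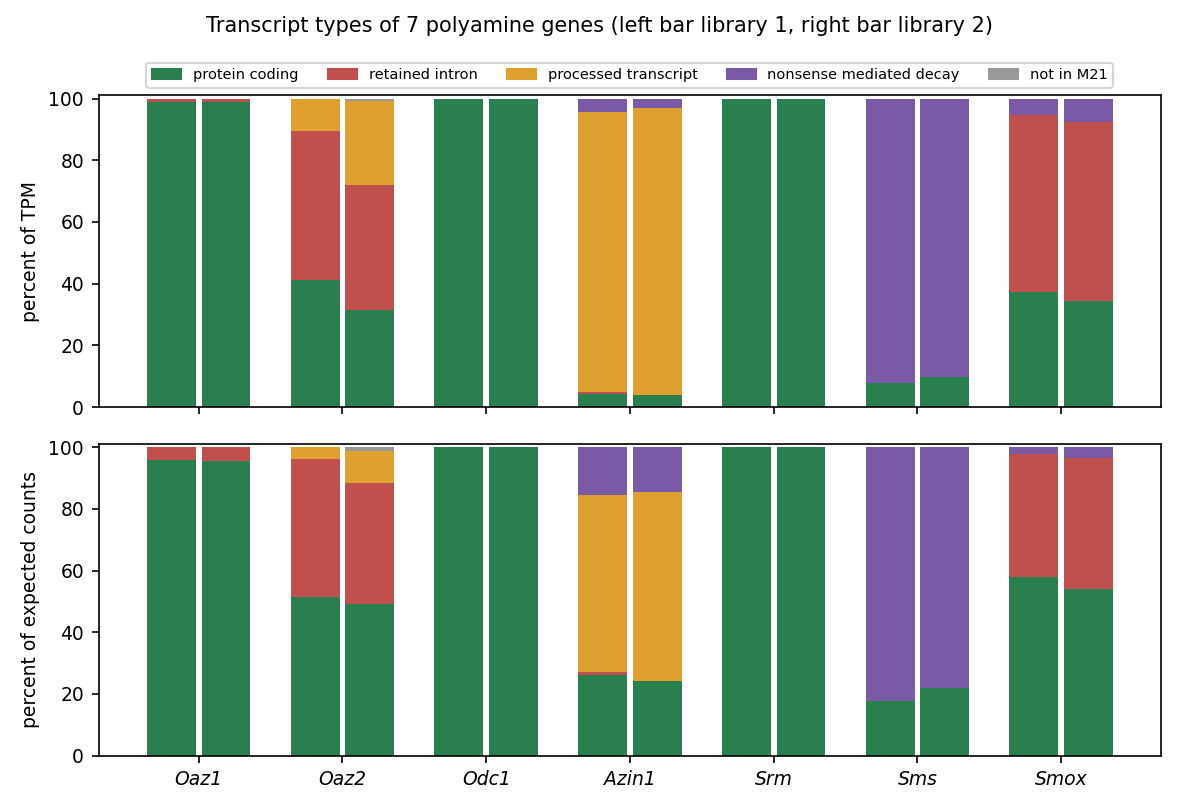
Share of each gene's TPM (upper panel) and of its expected counts (lower panel), in percent, by annotated transcript type for the 7 genes with at least 50 counts in both libraries, with library 1 as the left bar and library 2 as the right bar of each pair. Oaz1, Odc1 and Srm are almost wholly protein coding, while in library 1 coding models hold 37.3% of Smox TPM, 4.19% of Azin1 TPM and 8.11% of Sms TPM, and in library 2 34.3%, 3.91% and 9.84% of these, with larger shares of the counts.

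Breakdown was represented almost wholly by Smox, which oxidises spermine directly to spermidine. Smox, at chr2:131491496-131525922 on the plus strand, had 227 TPM in library 1 and 245 TPM in library 2, a mean of 236 ± 12.8 TPM (SD, n = 2), and ranked 94 among protein-coding genes. It shared 0 of its 31-base words with any other gene, so no annotated copy competed for its reads. Sat1, at chrX:155213132-155216449 on the minus strand, acetylates spermidine and spermine and had 0.29 TPM in library 1 and 1.22 TPM in library 2, a mean of 0.755 ± 0.658 TPM (SD, n = 2). Paox, at chr7:140115799-140137224 on the plus strand, oxidises the acetylated forms in peroxisomes. It had 0 counts in library 1, where 3 counts would be 0.0590 CPM (the same scale without the length correction), and 14 counts, 0.18 TPM, in library 2. Smox held 99.9% of the summed TPM of these 3 enzymes in library 1 and 99.4% in library 2.

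The level of Smox moved with which of its 17 models were counted. Smox-213, of the retained-intron type and 720 bases long, held 57.4% of Smox TPM in library 1 and 57.9% in library 2, and 39.7% of its counts in library 1 and 42.0% in library 2. It covers 2 exons at the 3′ end of the gene, and its first exon of 321 bases is longer than the matching exon of 161 bases in the full coding model Smox-201, which ends at the same base. Smox-206, a coding model, came next with 16.5% of TPM in library 1 and 14.7% in library 2, and Smox-201 held 8.00% in library 1 and 6.09% in library 2. Coding models alone gave Smox a level of 84.7 TPM in library 1 and 83.9 in library 2, still above Odc1 in both libraries.

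Summed over Sat1, Paox and Smox, the breakdown enzymes exceeded the summed synthetic enzymes Odc1, Srm and Sms by 5.37-fold in library 1 and 6.10-fold in library 2, a mean ratio of 5.74 ± 0.516 (SD, n = 2). Smox exceeded Odc1 by 5.90-fold in library 1 and 7.03-fold in library 2. By expected counts the mean ratio of breakdown to synthetic enzymes was 2.07, and with coding models alone it was 2.08, so the size of the ratio, but not its direction, moved with the unit. These are ratios of mRNA levels and carry no measure of enzyme amount.

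The order of levels was Oaz1, Smox, Odc1, Azin1, Oaz2, Srm, Sat1, Sms and Paox. The ranges of neighbouring genes over the 2 libraries lay apart except for Sat1 and Sms, which overlapped. The narrowest gap in proportion to the level lay between Azin1, whose lowest value was 14.6 TPM, and Oaz2, whose highest was 14.1 TPM. The place of Azin1 rests on its short non-coding model: with coding models alone Azin1, at 0.75 TPM in library 1 and 0.57 in library 2, lay below both Oaz2 and Srm in both libraries. By coding models Oaz2, at 5.82 TPM in library 1 and 3.79 in library 2, overlapped in range with Srm. Srm had 3.43 TPM in library 1 and 4.88 in library 2, so the place of Oaz2 above Srm also rests on its other models. With 2 libraries a gap between ranges is a description of these libraries.

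Across all protein-coding genes with at least 50 counts in both libraries and more than 1 transcript, 24.4% of 4652 were led by a model that is not of the protein-coding type. Of the 6 polyamine genes that met both conditions, 4 were led by such a model: Oaz2, Azin1, Sms and Smox. Oaz1 and Srm were led by a coding model, and so was Odc1, which has only 1 transcript in the tables. The same model led by TPM in both libraries for 7 of the 7 genes, and by counts for 6 of them, Oaz2 being the exception. Transcript types came from GENCODE M21 and the tables from M4, and the lengths differed for Odc1-201 (2547 bases in the tables), Azin1-201 and Azin1-202, so the type of Azin1-202 in particular is uncertain.

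Between the libraries, Odc1, Azin1, Oaz2 and Smox were higher in library 1 and Oaz1, Srm, Sat1, Sms and Paox were lower. The question is only whether the 2 libraries differ beyond counting error, since there are no conditions. All 9 genes had enough counts to be tested and 9 passed an adjusted p of 0.05 in the two-sided exact binomial test with Benjamini-Hochberg adjustment over 10955 genes. Over all tested genes 44.9% passed, 22.5% higher in library 1 and 22.4% lower, and the count of 9 stands against that background. Where each library had at least 100 counts of a gene, as for 6 of the 9 genes, 58.3% passed. The members' median absolute log2 difference was 0.35, against 0.21 over the 5256 genes of that depth, 3 of the 9 genes being shallower than those. The common biological coefficient of variation over 9043 genes was 0.241.

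Scaled CPM, which are CPM after normalisation of the library sizes, were 178 in library 1 and 144 in library 2 for Odc1, a log2 difference of 0.31 (exact binomial test, adjusted p = 3.68e-38). Azin1 had 26.1 scaled CPM in library 1 and 18.4 in library 2, a log2 difference of 0.49 (exact, adjusted p = 1.83e-14). Oaz2 had 27.8 scaled CPM in library 1 and 20.4 in library 2, a log2 difference of 0.43 (exact, adjusted p = 3.36e-12). These 3 genes were thus higher in library 1 in CPM and in TPM, unlike Oaz1. Oaz1 had 1949 scaled CPM in library 1 and 1979 in library 2, a log2 difference of -0.02 (exact, adjusted p = 0.00270), a very small difference at a depth of 99091 counts in library 1 and 88166 in library 2. Smox had 365 scaled CPM in library 1 and 337 in library 2, a log2 difference of 0.12 (exact, adjusted p = 3.33e-12). In TPM both Oaz1 and Smox were lower in library 1, and the median log2 TPM ratio over all genes of 100 or more counts was -0.16 where that of scaled CPM was -0.00233. Relative to that median, the log2 TPM ratio was 0.02 for Oaz1 and 0.05 for Smox, so the direction of Oaz1 turned and that of Smox matched its CPM.

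The genes lower in library 1 other than Oaz1 were also lower there in TPM. Srm had 7.90 scaled CPM in library 1 and 10.03 in library 2, a log2 difference of -0.31 (exact binomial test, adjusted p = 0.00206). Sat1 had 0.413 scaled CPM in library 1, with a 95% Poisson interval of 0.256 to 0.631, and 1.55 in library 2, with an interval of 1.21 to 1.96. Its log2 difference on CPM + 1, which understates changes of genes this low, was -0.85 (exact, adjusted p = 7.18e-08), and it rested on 21 counts in library 1 and 69 in library 2. Paox was lower in library 1 (exact, adjusted p = 0.000117), with 0 scaled CPM there and a 95% Poisson interval of 0 to 0.0725. In library 2 it had 0.314 scaled CPM, with an interval of 0.172 to 0.527. That value is 5.33-fold the level of 3 counts in library 1, which leaves out the counting error of library 2. Sms differed by -0.35 (exact, adjusted p = 0.0407), and without a count minimum its adjusted p was 0.0575, so its call rests on the filter. Intervals and limits cover counting error only.

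The sums of several marker lists were also lower in library 1 in TPM, a unit in which the median gene was lower there too. The summed TPM of 5 macrophage markers was 10.8 in library 1 and 16.7 in library 2, with 3 of 5 at 1 TPM or more in both. Hepatocyte markers, 2 of 4 at that level, summed to 8.22 TPM in library 1 and 10.2 in library 2. Neutrophil markers, 2 of 2 at that level, summed to 5.43 TPM in library 1 and 6.99 in library 2, and megakaryocyte markers, 1 of 2, to 2.17 in library 1 and 2.84 in library 2. Endothelial markers, 0 of 2 at that level, summed to 0.11 TPM in library 1 and 0.17 in library 2, and 0 of the listed markers were at 0 in both libraries. Erythroblast markers summed to 796276 TPM in library 1 and 813947 in library 2. Not all markers were lower in library 1: Pf4 had 0.39 TPM in library 1 and 0.12 in library 2, Alb had 0.76 in library 1 and 0.59 in library 2, Elane had 1.97 in library 1 and 1.89 in library 2, and the early progenitor markers summed to 0.92 in library 1 and 0.80 in library 2. The part of such cells in the differences of Srm, Sat1, Sms and Paox was not tested. The GC content of the members ran from 42.4% to 58.4% among those higher in library 1 and from 43.8% to 58.5% among those lower.

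**Figure D3:**
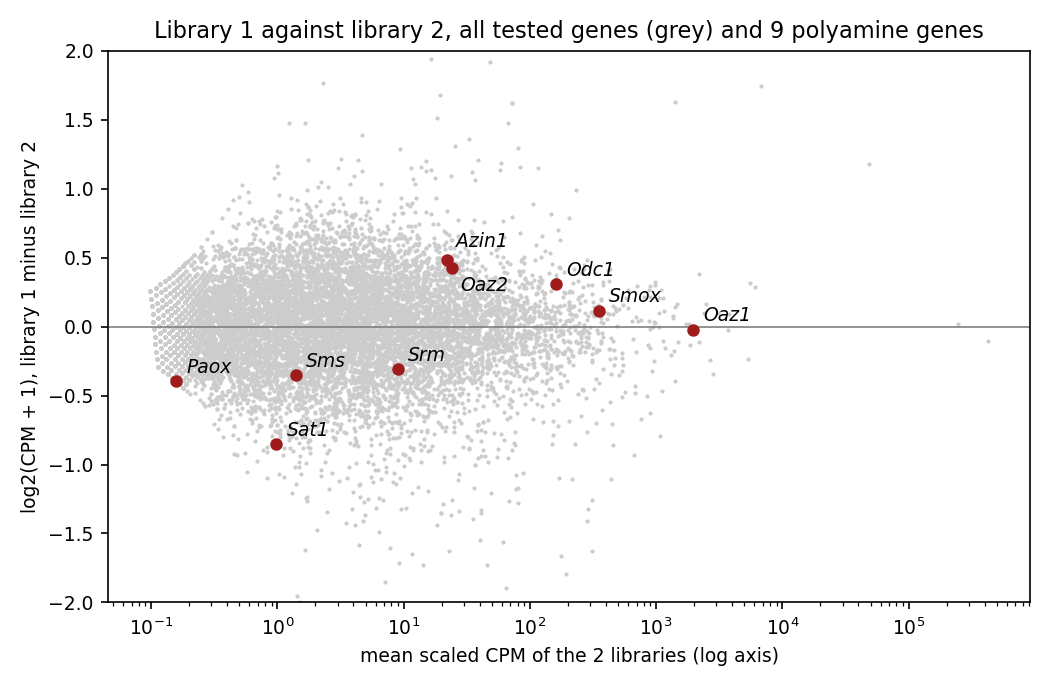
Difference between the libraries on the log2(CPM + 1) scale, library 1 minus library 2, against the mean scaled CPM on a log axis, for the 10955 tested genes (grey, of which 25 lie beyond the axis limits of 2 on either side) and the 9 polyamine genes (red). Azin1, Oaz2, Odc1 and Smox lie above 0, Oaz1 lies at -0.02, and Sat1 is the lowest of the 9 at -0.85.

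Beyond the 9 genes, 28 other genes of polyamine metabolism and transport were listed by role, and 8 of them (28.6%) reached 1 TPM in both libraries, against 20.0% of protein-coding genes. In hypusine formation 3 of 4 genes reached 1 TPM. Eif5a, the factor that carries hypusine, had 313 TPM in library 1 and 332 TPM in library 2. Dohh, the hydroxylase of the second step, had 35.3 TPM in library 1 and 33.6 in library 2. Dhps, the synthase of the first step that uses spermidine, had 2.07 TPM in library 1 and 2.16 in library 2. Eif5a was thus above Smox, Dohh near Odc1 and Dhps below Srm in both libraries.

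Of 10 genes that supply the aminopropyl donor or recycle its by-product methylthioadenosine, 3 reached 1 TPM. Mat2b, a regulatory subunit in S-adenosylmethionine synthesis, had 2.11 TPM in library 1 and 1.99 TPM in library 2. The salvage enzyme Mri1 had 2.31 TPM in library 1 and 2.85 in library 2, and the salvage enzyme Apip had 2.25 in library 1 and 2.31 in library 2. Amd1, the decarboxylase that makes the donor used by Srm and Sms, was named after its values were seen, with 0.32 TPM in library 1 and 0.19 TPM in library 2, from 95.3 counts in library 1 and 44.8 in library 2. None of the 4 genes of ornithine supply and use reached 1 TPM, nor did the 2 genes of other antizymes and inhibitors or the 2 of other acetyltransferases. Arg2, Oaz3, Satl1 and Atp13a4, also named after their values were seen, were listed at 0 in both libraries.

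Among 6 transport genes, 2 reached 1 TPM in both libraries. Slc3a2, a subunit of amino acid transporters that has also been tied to polyamine export, had 12.9 TPM in library 1 and 20.3 TPM in library 2. Atp13a2, a lysosomal polyamine exporter, had 2.25 TPM in library 1 and 2.30 TPM in library 2. Of the 28 genes 18 had enough counts to be tested between the libraries and 7 passed, 5 higher and 2 lower in library 1, beside 44.9% of all tested genes. Slc3a2 was among those lower in library 1, by -0.47 on the log2(CPM + 1) scale (exact, adjusted p = 1.24e-40).

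**Figure D4:**
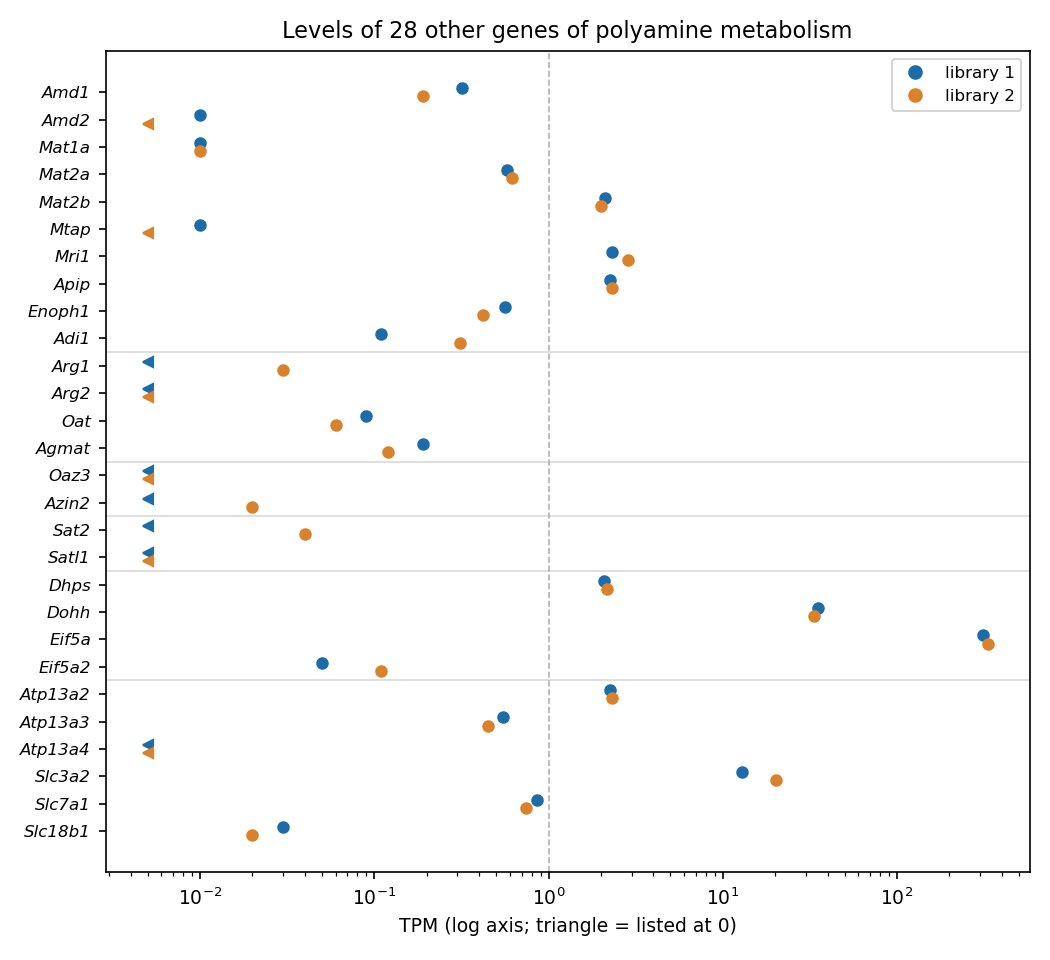
Level of the 28 other genes of polyamine metabolism in TPM on a log axis, with library 1 above library 2 in each row, grouped from top to bottom as donor and salvage, ornithine, other antizyme and inhibitor, other acetyltransferases, hypusine and transport, with triangles for a level listed at 0. Eif5a at 313 TPM in library 1 and 332 in library 2 lies farthest right, followed by Dohh and Slc3a2, and 20 of the 28 genes fall below the dashed line at 1 TPM in at least 1 library.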

How the data were processed

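Poly(A)-selected paired-end RNA-seq of 2 erythroblast libraries was analysed from the gene and transcript tables of each library, with 69691 rows per gene table. A listing that accompanies the tables names mm10 and GENCODE M4. Which aligner and quantifier were run, in which version and with which strand setting, is not given in the sources used here. Column headings match RSEM output, per the file headers. The deposited expected counts are the authors' estimates and can be fractional where a read fits more than 1 gene. The deposited TPM and FPKM values were corrected for transcript length by the authors, and the deposited percent gives each transcript's share of its gene's TPM.

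Expected counts were rounded, and library sizes were multiplied by edgeR TMM factors of 0.993 and 1.01 (edgeR 4.0.16, R 4.3.3). A two-sided exact conditional binomial test compared the libraries wherever a gene had at least 10 counts over both, with Benjamini-Hochberg adjustment over all such genes. It covers counting error alone, and 5591 genes had an unadjusted p below 0.05. Log2 differences used scaled CPM + 1. The procedure was tested on simulated Poisson counts. These hold counting error alone, so that check did not cover the further spread between these libraries. Transcript types, positions, pseudogenes and shared 31-base words came from GENCODE M21, on the same assembly. The expected counts of 5 of the 9 genes were whole in both libraries, within 0.01.

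The 9 genes, the lists, the rule for named genes and the tests were chosen with earlier results of these data known. The rule took all 9 genes, the genes of the wider list with 1 TPM or more in both libraries, the 5 protein-coding genes nearest in level to Oaz1 and to Odc1, up to 3 genes that share words with a member, and the cell type markers. Not every gene that the rule takes is reported here. By that rule Azin1 shared at most 6 words with 2510002D24Rik, Tulp1 or Mybl1. These are the 3 quantified genes of the 4 that share words with Azin1. In all, 336 of the 6368 Azin1 words, pooled over its transcripts, occur in other genes. By model, 53.0% of the words of Azin1-208 and 6.92% of those of Azin1-201 do so. Sms shared words with 1436 genes, led in counts by Pabpc1, Dmtn and Add1, and Paox with 3478 genes, led by Sptb, Dmtn and Ucp2. Alternatives were DESeq2 1.42.0 size factors, total counts, other count, TPM and pseudocount settings, FPKM, posterior means, counts in place of TPM and each library alone. Protein-coding transcripts alone and the addition of pseudogene counts were chosen later, with the data in view. The other steps ran in Python 3.11.15 (numpy 2.4.6, pandas 2.3.3, scipy 1.17.1, Biopython 1.88, matplotlib 3.10.9).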

Additional observations from a re-analysis of the deposited data

How the results depend on the processing

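No paired analysis was possible because there was 1 group. Of the main results 10 alternative values moved and 42 did not. A level or ratio counted as moved when it left the mean by over 1 SD of the 2 libraries. A tested difference counted as moved when its call or direction changed. With 2 libraries each value lies within 1 SD of their mean, so leaving a library out could not count as a move. Ratios in FPKM could not move either, because FPKM is proportional to TPM within a library. Counts of genes were also included, and 4914 called genes against 3888 at a count minimum of 100 was listed as not moved. Among single genes 23 moved by that measure, and the difference of Sms lost its call without a count minimum (exact test, adjusted p = 0.0575). The measure is loose for low genes. The Sat1 level was 0.29 to 1.22 TPM, the Paox level 0 to 0.18 TPM and Smox over Sat1 201 to 782 with 1 library left out, and a pseudocount of 0.25 CPM gave log2 differences of -1.44 for Sat1 and -1.17 for Paox. The direction of Oaz1 between the libraries turned in TPM relative to the median gene. By expected counts in place of TPM, the ratio of Oaz1 to Odc1 was 12.4, antizymes over Odc1 and Azin1 11.01, breakdown over synthetic enzymes 2.07 and the members' share 0.253%. With protein-coding transcripts alone, antizymes over Odc1 and Azin1 was 45.5 and breakdown over synthetic enzymes 2.08. With the pseudogenes that share its words added to Odc1, Oaz1 over Odc1 was 38.3 and breakdown over synthetic enzymes 4.81. Outside the globins the share was 1.36%, and 3 genes of the wider list reached 5 TPM. These values came with a change of unit, transcripts, added pseudogenes, denominator or TPM threshold. Leaving out each library in turn gave 42.2 to 51.3 for Oaz1 over Odc1, 29.0 to 36.4 for antizymes over Odc1 and Azin1, 5.37 to 6.10 for breakdown over synthetic enzymes, 0.192% to 0.210% for the share, 6 to 7 members at 1 TPM and 8 genes of the wider list either way.

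Sms, Sat1 and Paox had under 100 counts in each library, so their levels, order and transcript shares are limited by depth. With 2 libraries no spread could be estimated for a gene beyond the difference of 2 values. Ratios between genes rest on the transcript lengths the quantifier chose, and coding transcripts alone gave mean levels of 0.66 TPM for Azin1, 0.045 TPM for Sms, 4.81 TPM for Oaz2 and 84.3 TPM for Smox.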
